A study of Homo sapiens with 8 samples.

Results

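The nuclear genes of oxidative phosphorylation were followed across 4 transfections of Reh cells. The set held every gene with a probe set whose only platform symbol began with NDUF, UQCR, COX4 to COX8 or ATP5, or was a succinate dehydrogenase subunit symbol (SDHA to SDHD), and COX7A2L was left out by this rule. It came to 89 of the 19775 genes with a single-symbol probe set, on 172 probe sets, and each gene was represented by its probe set with the highest mean over the 8 arrays. Of the 89, 33 encode subunits of complex I, 3 of complex II, 6 of complex III, 16 of complex IV and 18 of complex V, counting its inhibitor ATP5IF1. The symbols also brought in 8 assembly factors of complex I (NDUFAF1 to NDUFAF8), 3 antisense or divergent transcripts and 2 pseudogenes, none of which is a subunit. Another 15 probe sets that carried several symbols were not used.

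Reh is an established human B-cell precursor line, which the series' design text derives from acute lymphoblastic leukemia, while its labels give non-Hodgkin lymphoma. The cells had received a control shRNA, an shRNA against CBFA2T3 (a transcriptional corepressor of the ETO family), IKKβ(EE) (a form of IκB kinase β that is always active), or this shRNA together with IKKβ(EE). Knockdown and expression were transient, in unsorted bulk cultures as far as the labels say, and a control shRNA in the cells that received only IKKβ(EE) is not mentioned. Each group had 2 arrays, labelled biological replicates 1 and 2, so every value below rests on n = 2 arrays a group. The arrays were Affymetrix U133 Plus 2.0, and values are log2 intensities after RMA, which sets all arrays to a common distribution. A difference is therefore relative to the other transcripts of the same array, and less RNA in every cell cannot be told apart from fewer cells holding the RNA.

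Oxidative phosphorylation passes electrons from NADH through complex I, or from succinate through complex II, to ubiquinone, complex III, cytochrome c and complex IV, where oxygen is reduced. Complexes I, III and IV pump protons across the inner mitochondrial membrane, and complex V, the ATP synthase, uses the gradient to make ATP. Most subunits are nuclear-encoded and imported, while a core set comes from mitochondrial DNA, so the nuclear genes are known to be expressed in step with each other and with the mitochondrial ribosome. Their promoters are known for sites of NRF1, ETS factors such as GABPA, and YY1.

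Promoter sequence was available for 75 of the 89 genes in RefSeq (GRCh38.p14), as 250 bases before to 50 bases after each start, and motifs were searched on both strands. The NRF1 motif, a 10-base consensus with 1 base left free, was found in 17 of these 75 windows (22.7%), against 6.28% of the windows of all 27305 genes. The ETS motif CCGGAAG was in 25.3% of the 75 and 10.7% of all windows, and the YY1 motif AAGATGG in 20% and 6.06%. The general promoter motifs differed less, with the NF-Y motif CCAAT in 34.7% and 35.7%, and the SP motif GGGCGG in 57.3% and 44.6%. The NRF1 consensus with no free base was in 6.67% and 1.36% of windows, and a longer YY1 motif that starts with AAGATGG in 4% and 0.916%, and these matches lie within those of the shorter forms. A match describes letters only and is not a bound site. The 250 bases before the start are printed for 6 genes, with matches to the NRF1, ETS, YY1 (short) and NF-Y motifs in capitals. ATP5MC1 and NDUFB7 are the subunit genes that passed the test between replicates. NDUFA3, SDHD, UQCR11 and ATP5PF were taken from the tested subunit genes with at least 2 of the NRF1, ETS and YY1 motifs in these bases. Not every chromosome was considered for this choice, and assembly factors were not, so it is no complete list.
ATP5MC1, chr17:48892537-48892786, plus strand: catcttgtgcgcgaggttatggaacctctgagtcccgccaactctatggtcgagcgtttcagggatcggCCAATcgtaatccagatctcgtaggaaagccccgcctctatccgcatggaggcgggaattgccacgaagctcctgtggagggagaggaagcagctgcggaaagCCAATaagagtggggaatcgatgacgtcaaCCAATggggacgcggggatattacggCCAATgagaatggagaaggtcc
NDUFB7, chr19:14572067-14572316, minus strand: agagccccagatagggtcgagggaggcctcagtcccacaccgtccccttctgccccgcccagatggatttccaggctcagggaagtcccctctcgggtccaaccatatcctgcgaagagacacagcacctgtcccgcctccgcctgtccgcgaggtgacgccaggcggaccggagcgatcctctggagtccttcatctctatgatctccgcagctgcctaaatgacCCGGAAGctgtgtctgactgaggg
NDUFA3, chr19:54102605-54102854, plus strand: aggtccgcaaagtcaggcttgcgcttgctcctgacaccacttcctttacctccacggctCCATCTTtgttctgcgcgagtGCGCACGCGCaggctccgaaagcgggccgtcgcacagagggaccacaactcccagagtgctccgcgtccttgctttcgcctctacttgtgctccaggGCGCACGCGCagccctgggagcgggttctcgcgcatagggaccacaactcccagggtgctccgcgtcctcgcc
SDHD, chr11:112086623-112086872, plus strand: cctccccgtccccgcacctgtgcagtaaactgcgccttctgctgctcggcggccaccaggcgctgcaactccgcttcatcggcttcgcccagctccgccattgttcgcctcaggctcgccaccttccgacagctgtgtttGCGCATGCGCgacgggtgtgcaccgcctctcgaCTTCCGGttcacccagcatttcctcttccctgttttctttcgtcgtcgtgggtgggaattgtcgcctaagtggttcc
UQCR11, chr19:1605463-1605712, minus strand: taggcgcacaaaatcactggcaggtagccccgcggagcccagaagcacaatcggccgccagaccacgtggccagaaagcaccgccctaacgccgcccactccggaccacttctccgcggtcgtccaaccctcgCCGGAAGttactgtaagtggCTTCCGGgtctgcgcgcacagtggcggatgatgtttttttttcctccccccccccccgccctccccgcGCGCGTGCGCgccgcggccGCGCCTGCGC
ATP5PF, chr21:25735055-25735304, minus strand: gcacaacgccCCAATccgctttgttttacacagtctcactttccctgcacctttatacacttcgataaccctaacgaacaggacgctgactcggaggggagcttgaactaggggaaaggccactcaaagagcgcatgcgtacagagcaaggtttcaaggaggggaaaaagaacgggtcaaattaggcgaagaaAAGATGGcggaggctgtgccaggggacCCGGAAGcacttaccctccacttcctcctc
The ATP5MC1 stretch held 4 CCAAT matches, the nearest ending 18 bases before the start, and no match to the NRF1, ETS or YY1 letters. NDUFB7 held a single ETS match, NDUFA3 and UQCR11 held 2 NRF1 matches each, and SDHD held an NRF1 and an ETS match.

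Of the 89 genes, 83 reached log2 5, the floor used for testing, on at least 2 arrays. The tested subunit genes of complexes I, II, III and V had means over the 8 arrays between 9.17 (NDUFV3) and 13.43 (ATP5F1A), far above the floor. The probe sets with the highest mean in each complex were those of NDUFAB1 (the mitochondrial acyl carrier protein, 12.56), SDHA (the flavoprotein of complex II, 11.59), UQCRB (12.63), COX7C (13.20) and ATP5F1A (the α subunit of the F1 head, 13.43). Complex I assembly factors had means of 8.47 to 10.59. Intensities of different probe sets also depend on their probes, so this is no order of transcript levels.

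Complex IV held 4 of the 6 genes below the floor. Several of its subunits are known to have tissue-restricted alternative forms. The ubiquitous COX4I1, COX6A1, COX6B1, COX7A2, COX7B and COX8A stood at means of 11.82 to 12.94. COX6A2 and COX7A1, the heart and skeletal muscle forms, stayed below the floor on all 8 arrays, at means of 4.76 and 3.11. COX6B2 (4.25) and COX7B2 (2.68), known from testis, stayed below it as well. COX4I2, a form known from lung, lay at the floor with a mean of 5.03 (4.85 to 5.26), and COX8C was dim at 5.73 (5.44 to 6.18). ATP5MF (4.24) and the pseudogene COX6A1P1 (3.54) were the other genes below the floor. ATP5MF has a further probe set on the platform, which carries several symbols and was not used. Just inside the floor were NDUFV2-AS1 (mean 4.998) and COX4I2, and just outside it was COX6A2, whose highest array read 4.95.

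**Figure D1:**
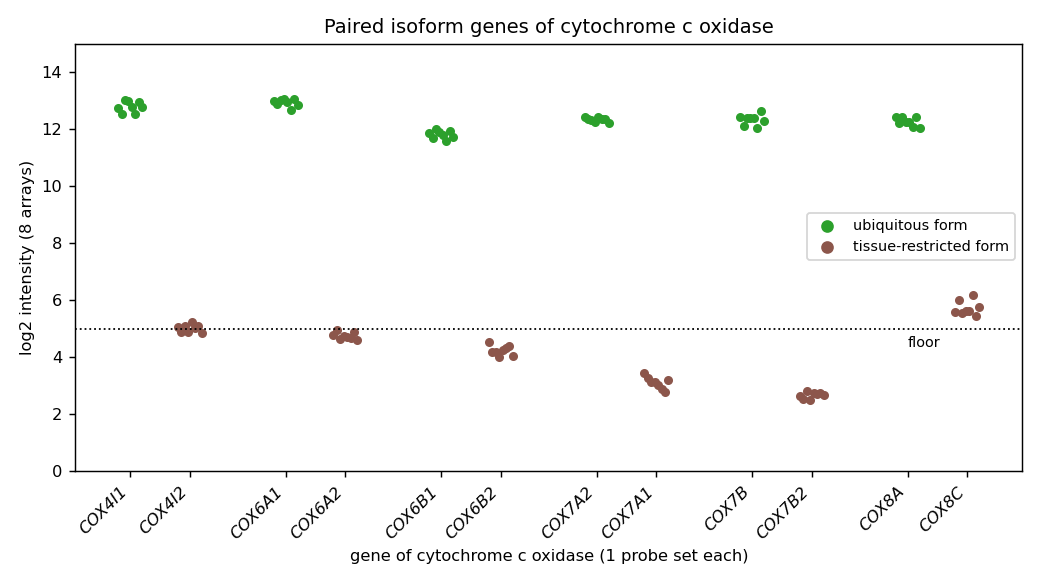
Log2 intensity (y axis) of 6 ubiquitous complex IV genes (green) and their tissue-restricted forms (brown), each point 1 of the 8 arrays, with the floor of log2 5 dotted. The ubiquitous forms had means of 11.82 to 12.94, whereas the restricted forms lay at or below the floor except COX8C (mean 5.73).

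The labels were checked on the targeted genes. CBFA2T3 read 9.22 and 9.29 with control shRNA and 8.40 and 8.11 with CBFA2T3 shRNA, a difference of -0.999 ± 0.16 (SE) with a limma adjusted p of 0.0518. That difference missed the threshold, and it passed with the replicate number added to the fit as a block (the replicate block, adjusted p = 0.0100). With both constructs CBFA2T3 fell by 1.23 (limma adjusted p = 0.00938). IKBKB, the gene of IKKβ, rose by 6.63 with IKKβ(EE) and by 7.71 with both on 1 of its 3 probe sets. Of 12 B-cell precursor markers 11 were measured. Of these, 10 were above the floor, among them DNTT (13.50), EBF1 (12.30) and PAX5 (12.22), with VPREB1 (3.22) below it. Of 6 T-cell markers only CD4 (5.30) reached the floor, and none of 5 measured myeloid markers did.

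Across arrays, the median over the 83 tested genes lay between 11.49 and 11.79. With control shRNA it was 11.79 and 11.58 on replicates 1 and 2, with CBFA2T3 shRNA 11.76 and 11.68, with IKKβ(EE) 11.61 and 11.49, and with both 11.76 and 11.56. The higher value belonged to replicate 1 in each of the 4 groups, while the IKKβ(EE) arrays lay below both CBFA2T3 shRNA arrays and every other pair of groups overlapped. The median of all 11445 tested genes stayed between 8.12 and 8.17.

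**Figure D2:**
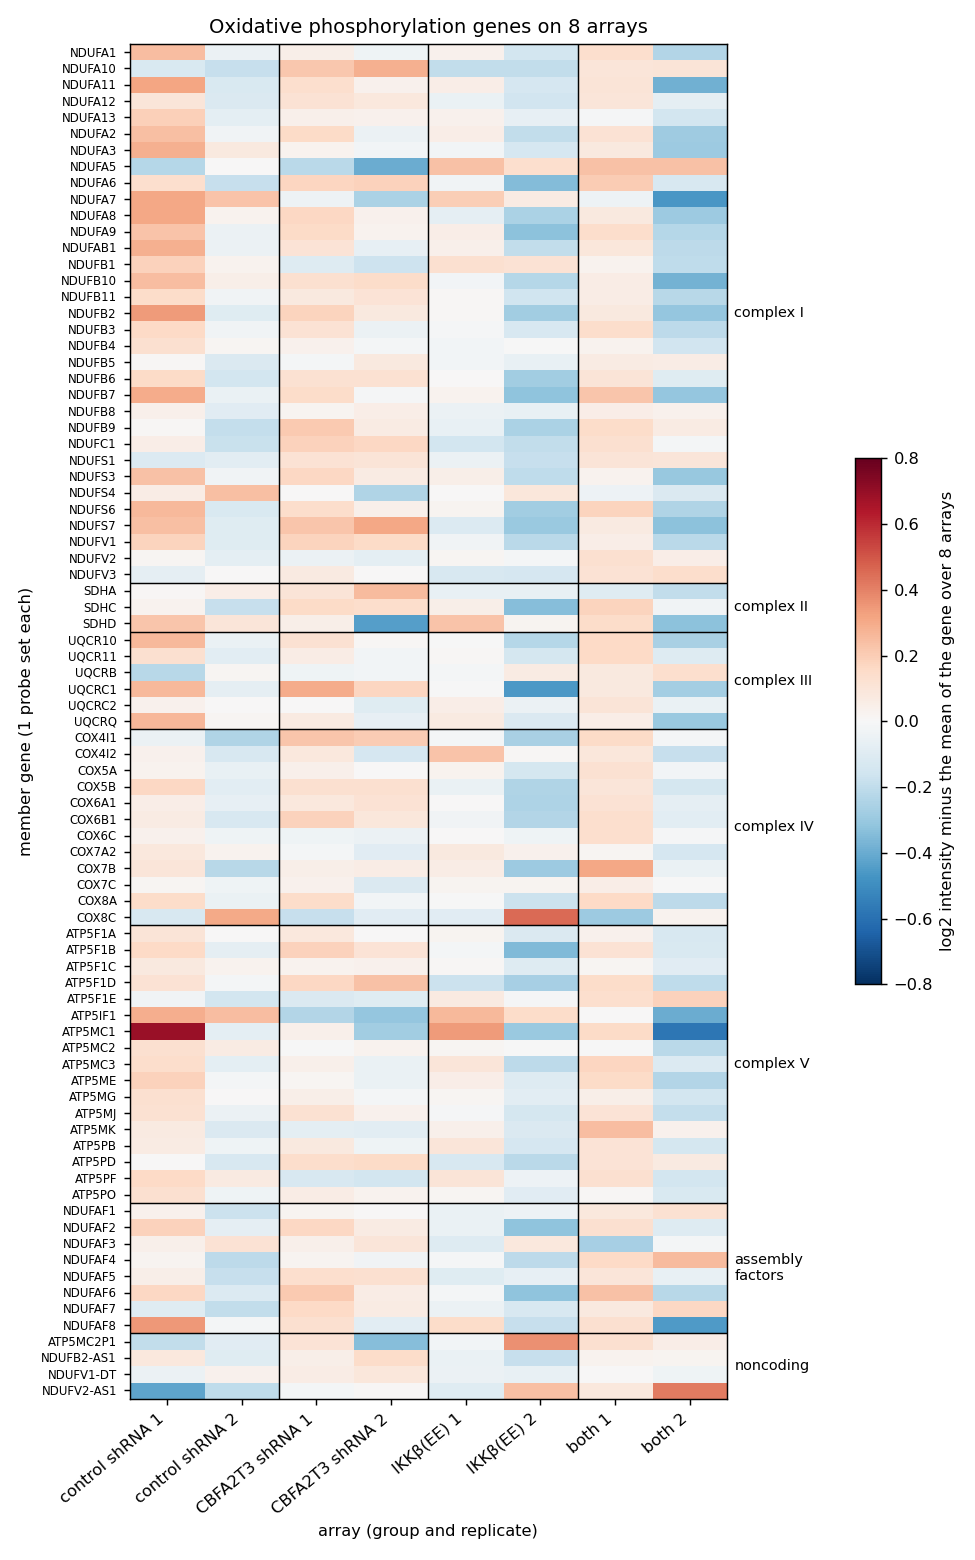
Each row is 1 tested gene, grouped by complex, and each column 1 array. The colour gives log2 intensity minus the gene's own mean over the 8 arrays (red higher, blue lower). Most cells are blue (below the mean) on replicate 2 of control shRNA, IKKβ(EE) and both constructs, where the medians over the 83 genes were 11.58, 11.49 and 11.56.

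The comparison of CBFA2T3 shRNA with control shRNA asks what depletion of the corepressor does to these genes. None of the 83 passed limma's test at an adjusted p of 0.05, where 0.69% of all 24481 probe sets did. At an unadjusted p of 0.05, 4 passed (4.82%, against 16.2% of all probe sets). The median difference was 0.00896 on the log2 scale, with 43 genes higher and 40 lower, against 0.0221 over all tested genes. By complex the medians were -0.0024 for complex I, 0.145 for the 3 genes of complex II, -0.0222 for complex III, 0.0305 for complex IV and -0.0244 for complex V. Arrays of both groups did not overlap for 27 of the 83 (32.5%), against 50% of all probe sets.

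The gene nearest to the threshold was NDUFA10, an accessory subunit of complex I. It read 10.08 and 10.02 with control shRNA and 10.42 and 10.49 with CBFA2T3 shRNA, so the groups did not overlap, and the difference was 0.40 ± 0.11 (limma adjusted p = 0.132). ATP5IF1, the inhibitor that keeps the synthase from hydrolysing ATP, showed the largest difference in the other direction. It read 9.998 and 9.95 in control cells and 9.47 and 9.40 with the shRNA, -0.54 ± 0.15 (adjusted p = 0.148). Its other probe sets were divided, with a difference of -0.29 on 1 (mean 9.055) and of 0.40 on the dimmer one (mean 7.39). NDUFA7, an accessory subunit of complex I, read 10.65 and 10.57 against 10.30 and 10.09, -0.42 ± 0.17 (adjusted p = 0.270), while its other tested probe set, at a mean of 5.85, differed by 0.21. COX4I1, the ubiquitous form of the largest nuclear-encoded subunit of complex IV, read 12.75 and 12.56 against 13.02 and 13.00, 0.35 ± 0.14 (adjusted p = 0.265).

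In the smaller complexes, the extremes were as follows. In complex II, the membrane anchors SDHC and SDHD differed by 0.22 ± 0.16 and -0.36 ± 0.21. In complex III, the core protein UQCRC1 differed by 0.14 ± 0.20 and the small subunit UQCRQ by -0.13 ± 0.16. In complex V, ATP5PD of the peripheral stalk differed by 0.21 ± 0.11. None of these 5 passed, and their adjusted p ranged from 0.410 to 0.796.

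The replicate block called 2 of the 83 (2.41%, against 7.72% of all probe sets): NDUFA10 higher (adjusted p = 0.0476) and ATP5IF1 lower (0.0394). The NDUFA10 call was lost on leaving out any 1 of the 8 arrays (adjusted p = 0.0573 to 0.295). The ATP5IF1 call held without either array of the double transfection (0.0249) and was lost without any 1 of the other 6 arrays (0.0696 to 0.266). COX7A2L, a supercomplex assembly factor related to COX7A2 and outside the set, read 11.22 and 11.27 with control shRNA and 9.54 and 9.10 with CBFA2T3 shRNA. It fell by 1.93 (± 0.20, limma adjusted p = 0.0263). COX7A2 itself differed by -0.11 ± 0.11.

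With IKKβ(EE) alone, again none of the 83 genes passed (limma, adjusted p at 0.05), against 0.229% of all probe sets, and 0 passed unadjusted, against 9.76%. The replicate block called none either, against 3.39%. Values lay slightly below control for most genes, 69 lower and 14 higher, with a median of -0.097 against -0.0398 over all tested genes, of which 6665 of 11445 were lower. Complex I had 29 of 33 lower (median -0.135), complex V 16 of 17 (-0.097), complex III 5 of 6 (-0.126), complex II 3 of 3 (-0.0707) and complex IV 8 of 12 (-0.0283). The median over the 83 stayed below 0 on leaving out each array in turn, from -0.17 without control replicate 2 to -0.0182 without control replicate 1. Arrays did not overlap for 18 of the 83 (21.7%), against 42.3% of all probe sets.

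Among single genes, NDUFA5, an accessory subunit of complex I, read 10.80 and 11.03 in control cells and 11.26 and 11.16 with IKKβ(EE), 0.29 ± 0.13 (limma adjusted p = 0.529). NDUFA8, another accessory subunit, read 10.91 and 10.63 against 10.53 and 10.35, -0.33 ± 0.17 (adjusted p = 0.573). For both genes the groups did not overlap, and neither difference passed. UQCRC1 differed by -0.32 ± 0.20, ATP5MC1 (a gene of the c-ring) by -0.29 ± 0.35, COX5B by -0.19 ± 0.15 and SDHA by -0.09 ± 0.11. On the positive side the largest in complexes III to V were UQCRB (0.12 ± 0.12), COX4I2 (0.17 ± 0.15, at the floor) and ATP5F1E, the ε subunit (0.12 ± 0.11).

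With both constructs against control shRNA, 8.43% of all probe sets passed and none of the 83 genes did (limma, adjusted p at 0.05). At an unadjusted p of 0.05, 6 passed (7.23%, against 27%). The median was -0.0765, with 33 higher and 50 lower, against -0.0215 over all tested genes. Complex I had 22 of 33 lower (median -0.136) and complex V 14 of 17 (-0.0929), while complex IV had 8 of 12 higher (0.0273). The median depended on single arrays: it was 0.0745 without replicate 2 of the double transfection, 0.018 without control replicate 1 and -0.161 without replicate 1 of the double transfection. Arrays did not overlap for 25 of the 83 (30.1%), against 55.7%.

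The smallest adjusted p belonged to NDUFV2-AS1, an antisense transcript at the floor. It read 4.58 and 4.79 in control cells and 5.08 and 5.41 with both constructs, 0.56 ± 0.17 (limma adjusted p = 0.0853). NDUFA7 read 10.65 and 10.57 against 10.30 and 9.87, -0.52 ± 0.17 (adjusted p = 0.0942). ATP5IF1 read 9.998 and 9.95 against 9.71 and 9.31, -0.47 ± 0.15 (adjusted p = 0.0997). Groups did not overlap for these 3 genes. ATP5MC1 read 11.31 and 10.54 against 10.77 and 10.04, so the groups overlapped, although it was lower with both constructs at each replicate number. Without the replicate block, the difference of -0.52 ± 0.35 was within the spread of the replicates (limma adjusted p = 0.376). NDUFA5 read 10.80 and 11.03 against 11.26 on both arrays, 0.35 ± 0.13 (adjusted p = 0.139).

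With the replicate block 4 of the 83 passed (4.82%, against 23.7% of all probe sets). NDUFV2-AS1 was higher (adjusted p = 0.0140), and NDUFA7 (0.0186), ATP5MC1 (0.0272) and ATP5IF1 (0.0296) were lower. Each of these calls was lost on leaving out at least 2 single arrays. NDUFA7 lost its call without control replicate 2 (0.149) or replicate 2 of the double transfection (0.140), and NDUFV2-AS1 without either control array (0.0550 and 0.100) or that same array (0.103). ATP5MC1 lost its call without either control array (0.136 and 0.0912) or replicate 2 of the double transfection (0.171). ATP5IF1 passed only without replicate 1 of the double transfection (0.0165), and without replicate 2 of it the difference was -0.30 (0.213). Without the block, ATP5IF1, NDUFA7 and NDUFV2-AS1 passed on leaving out replicate 1 of the double transfection. That fit leaves 1 array in the group, and its share of all probe sets is not given. These calls are therefore no result about the set.

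In the other complexes the extremes with both constructs were SDHC (0.15 ± 0.16) and SDHD (-0.25 ± 0.21), UQCRB (0.21 ± 0.12) and UQCRQ (-0.26 ± 0.16), COX4I1 (0.21 ± 0.14) and COX8C (-0.22 ± 0.22), and ATP5F1E (0.24 ± 0.11). None of these 7 passed. The comparisons with control share the control arrays, so values for 1 gene in them are not independent.

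**Figure D3:**
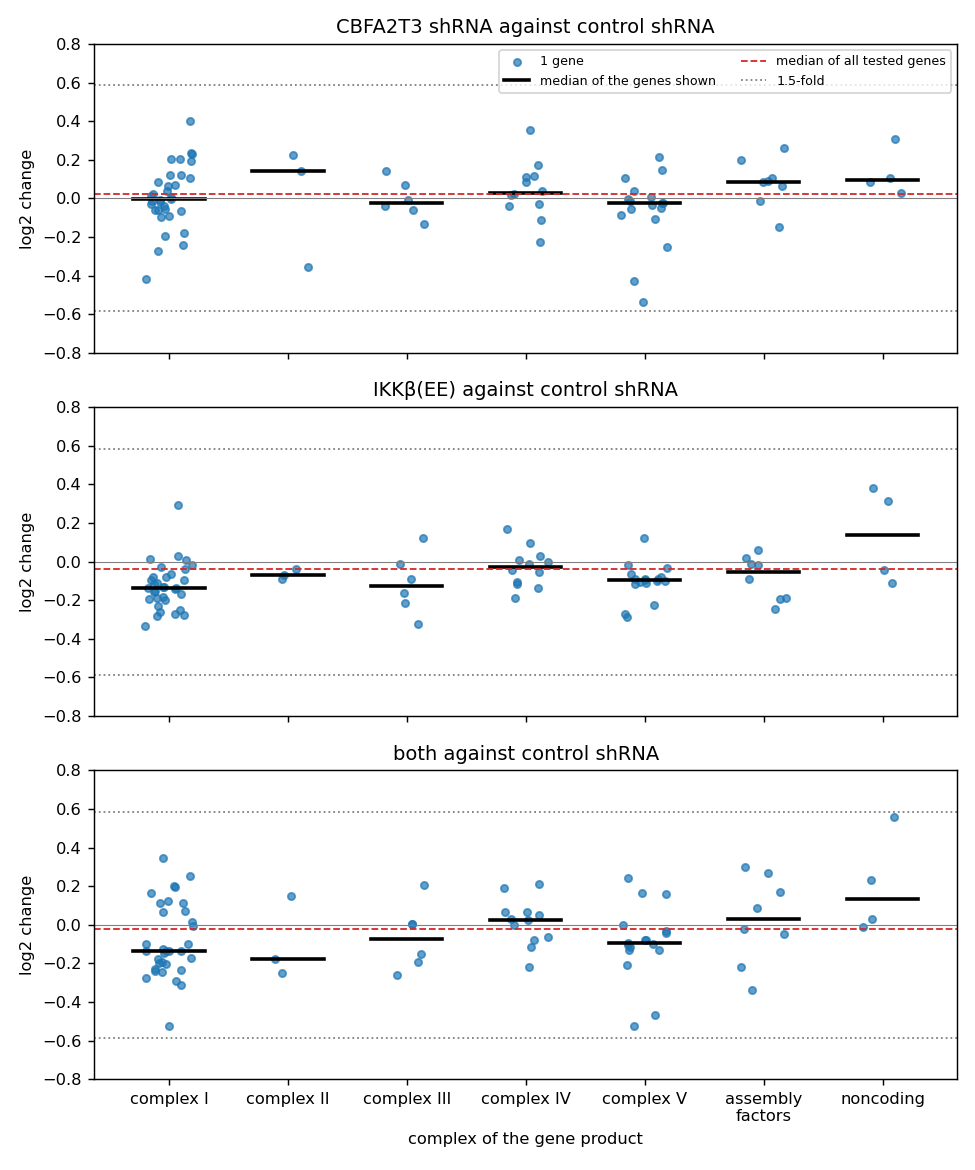
Log2 difference (y axis) from control shRNA for each tested gene, by complex, in 3 panels: CBFA2T3 shRNA, IKKβ(EE) and both. Black bars are medians of the genes shown, the red line is the median of all tested genes (0.0221, -0.0398 and -0.0215) and dotted lines mark 1.5-fold, which no gene exceeded.

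The arrays bounded most of these differences. The 95% interval of the difference lay within 1.5-fold in either direction for 70 of the 83 genes under the CBFA2T3 shRNA, for 60 under IKKβ(EE) and for 61 under the double transfection, and within 2-fold for 82 in each. The median SE of the genes was 0.141. This fit counts the difference between replicates as spread. With the replicate block the interval lay within 1.5-fold for 77, 78 and 75 genes, in the same order.

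IKKβ(EE) added to CBFA2T3 shRNA (both against CBFA2T3 shRNA) called none of the 83 (limma), against 0.862% of all probe sets, and 3 passed unadjusted (3.61%, against 15.2%). The median was -0.0857, with 57 of 83 lower, and 0.0348 without replicate 2 of the double transfection. NDUFA5 read 10.81 and 10.63 with CBFA2T3 shRNA and 11.26 on both arrays of the double transfection, 0.54 ± 0.13 (adjusted p = 0.135). SDHA, which oxidises succinate, read 11.69 and 11.84 against 11.49 and 11.39, -0.32 ± 0.11 (adjusted p = 0.264). Groups did not overlap for either gene.

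CBFA2T3 shRNA added to IKKβ(EE) (both against IKKβ(EE)) called none of the 83 either (limma), against 0.143%, and 6 passed unadjusted (7.23%, against 14.8%). The median was 0.0598, with 53 of 83 higher, and it was -0.0647 without replicate 1 of the double transfection and -0.0315 without replicate 2 of IKKβ(EE). NDUFA10 read 10.01 on both IKKβ(EE) arrays and 10.30 and 10.31 with both constructs, 0.29 ± 0.11 (adjusted p = 0.266). ATP5IF1 read 9.97 and 9.86 against 9.71 and 9.31, -0.40 ± 0.15 (adjusted p = 0.274). The interaction, which sets the double transfection against the single effects added up, called none of the 83, against 0.0123% of all probe sets, and none passed unadjusted, against 2.17%. With the replicate block these 3 comparisons also called none of the 83, against 5.08%, 4.56% and 0.0123%.

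**Figure D4:**
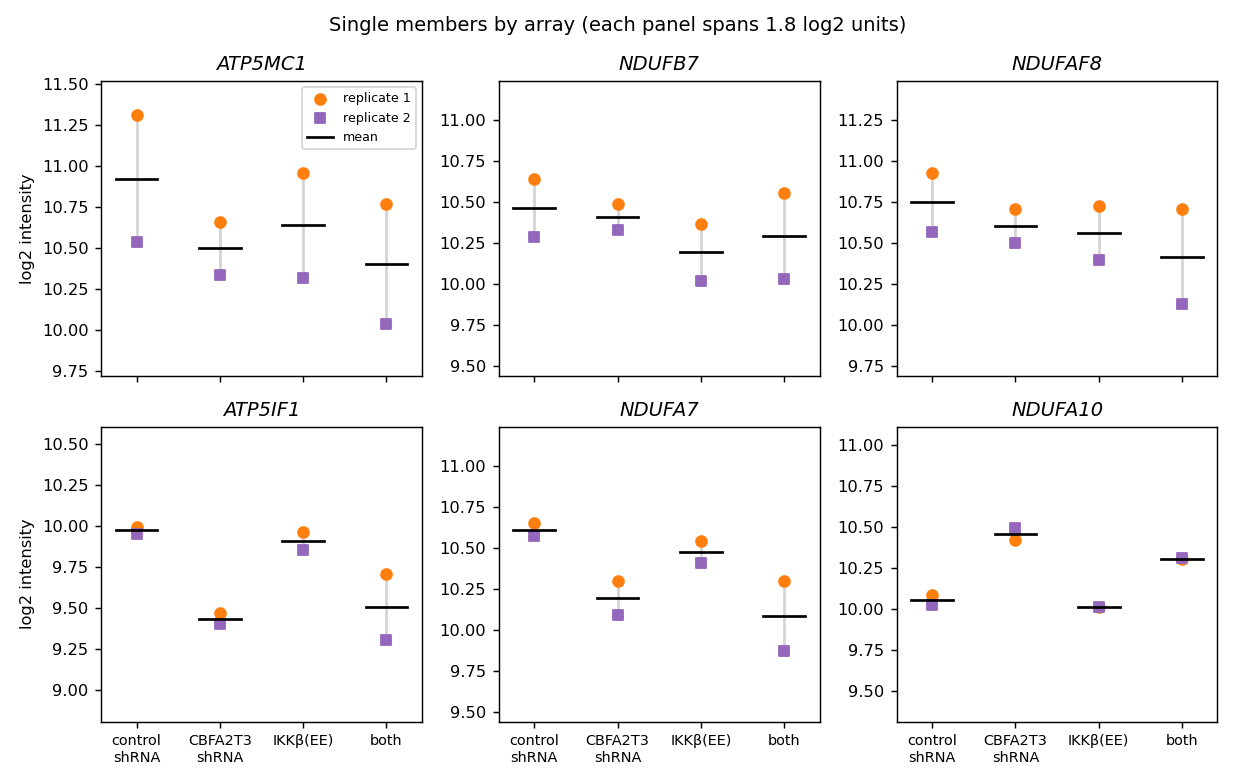
Log2 intensity (y axis) of 6 genes in the 4 groups, replicate 1 as circles and replicate 2 as squares, with group means as bars; each panel spans the same log2 range. The replicates of ATP5MC1, NDUFB7 and NDUFAF8 lie apart in the same order in every group, whereas those of NDUFA10 nearly coincide (10.08 and 10.02 with control shRNA).

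The difference that involved most of these genes was between replicates. A fit of group plus replicate number called 3 of the 83 lower on replicate 2 (3.61%, against 3.7% of all probe sets in that direction and 8.9% in either) and none higher. That share was no larger than the background, but the direction was shared: 75 of 83 were lower, with a median of -0.149, whereas the median over all tested genes was -0.00243. In all 4 groups 51 of the 83 were lower on replicate 2 (61.4%), against 20% of all probe sets, and 4 were higher in all 4 (4.82%, against 18%). At an unadjusted p of 0.05, 35 were lower (42.2%, against 15.3%) and 2 higher. The replicate number carried no batch or day in the labels.

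All 17 tested genes of complex V lay lower on replicate 2 (median -0.133), as did 31 of 33 of complex I (-0.192), 11 of 12 of complex IV (-0.143), 5 of 6 of complex III (-0.204) and 2 of 3 of complex II (-0.203). The assembly factors had 7 of 8 lower (-0.0943), and the noncoding transcripts 2 of 4. By group the median over the 83 was -0.186 with control shRNA (72 lower), -0.0541 with CBFA2T3 shRNA (61 lower), -0.143 with IKKβ(EE) (74 lower) and -0.206 with both (73 lower). The CBFA2T3 shRNA pair was the closest of the 4. Over all tested genes the group medians lay between -0.0135 and 0.0122, and over the 867 tested genes with means of at least log2 11 the median was -0.0542.

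ATP5MC1 had the largest of these differences. It read 11.31, 10.66, 10.96 and 10.77 on replicate 1 of the control, CBFA2T3 shRNA, IKKβ(EE) and double transfections, and 10.54, 10.34, 10.32 and 10.04 on replicate 2. It was lower on replicate 2 in each group, and it fell by 0.62 ± 0.09 (limma adjusted p = 0.0189). It is 1 of the 3 genes of the same c-ring protein, and the others, ATP5MC2 and ATP5MC3, did not pass. NDUFAF8, an assembly factor of complex I, read 10.93, 10.71, 10.73 and 10.71 on replicate 1 and 10.57, 10.50, 10.40 and 10.13 on replicate 2, and it fell by 0.37 ± 0.08 (adjusted p = 0.0393).

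NDUFB7, an accessory subunit of complex I, read 10.64, 10.49, 10.37 and 10.56 on replicate 1 and 10.29, 10.33, 10.02 and 10.03 on replicate 2, and it fell by 0.34 ± 0.08 (adjusted p = 0.0438). These 3 calls rested on all 4 pairs. Without either control array only ATP5MC1 was left (adjusted p = 0.0477), and without any 1 of the other 6 arrays none was. Close to the threshold were UQCRC1 (-0.32 ± 0.08, adjusted p = 0.0511) and SDHD (-0.33 ± 0.09, 0.0610). COX7B differed by -0.25 ± 0.09 and ATP5F1E by -0.03 ± 0.07. COX8C, the dim testis form, lay the other way at 0.35 ± 0.09 (0.0544), and the largest positive values in complexes I, II and III were 0.01 (NDUFV3), 0.02 (SDHA) and 0.10 (UQCRB), each within 2 SE of 0.

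**Figure D5:**
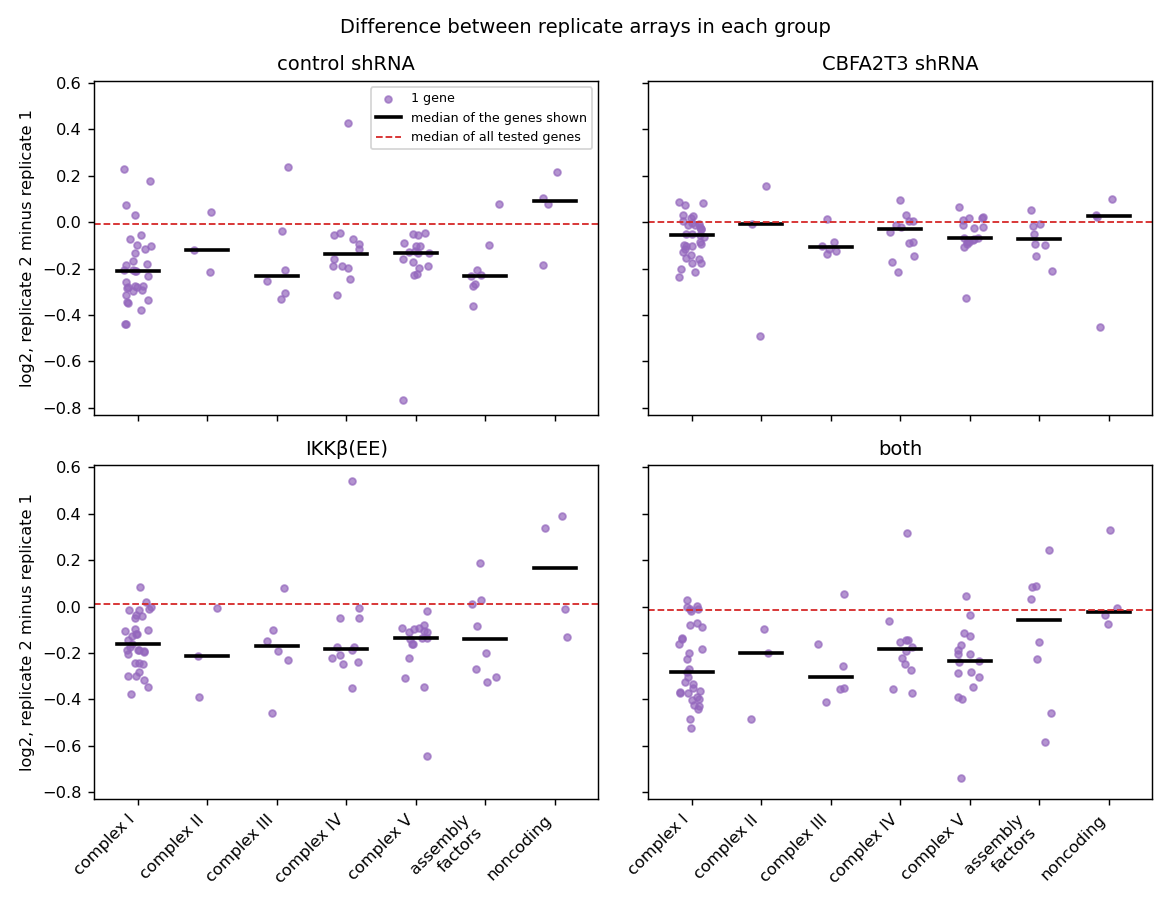
Log2 intensity of replicate 2 minus replicate 1 (y axis) for each tested gene, by complex, in a panel for each group. Black bars are medians of the genes shown and the red line is the median of all tested genes; the medians over the 83 genes were -0.186, -0.0541, -0.143 and -0.206.

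Most other probe sets of these genes lay in the same direction. Of 57 further tested probe sets 49 were lower on replicate 2, with a median of -0.183. Of the 57, 10 passed, all lower (17.5%, against 3.7% of all probe sets in that direction). Among them were those of ATP5F1E (-0.58), NDUFS1 (-0.62) and NDUFAF4 (-0.53). These 10 were dim, with means from 5.01 (NDUFB2) to 7.76 (ATP5MC3). The most intense probe sets of ATP5F1E, NDUFS1 and NDUFAF4 differed by only -0.03, -0.03 and -0.10, and none of them passed. In the 3 comparisons with control none of the 57 passed without the replicate block. With it, 1 passed with CBFA2T3 shRNA (1.75%, against 7.72%), 0 with IKKβ(EE) and 7 with both (12.3%, against 23.7%), 2 of them higher and 5 lower. A dim probe set of COX4I1 (mean 6.37) differed by 0.74 with CBFA2T3 shRNA and by 0.82 with both (with the replicate block, adjusted p = 0.0263 and 0.00801), more than its intense probe sets. A probe set of ATP5MJ differed by -0.58 with both (adjusted p = 0.0175 with the block), against -0.08 on the probe set with the highest mean. Probe sets of ATP5F1E (mean 5.32) and UQCR10 (mean 7.05) differed by -0.73 and -0.62 (with the block, adjusted p = 0.00400 and 0.00899), and that of ATP5F1E thereby lay opposite to the 0.24 of its most intense probe set. The remaining 3 were those of NDUFB2 (-0.39), NDUFA6 (-0.47) and SDHC (0.37), with adjusted p of 0.0316, 0.0432 and 0.0479 under the block. With both against CBFA2T3 shRNA the block called 1 of the 57, the same ATP5F1E probe set (-0.51, adjusted p = 0.0372).

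RNA integrity was followed on the array's control probes. The 3′ minus 5′ intensity of ACTB was 1.25 to 1.65 on replicate 1 and 1.51 to 1.94 on replicate 2, higher on replicate 2 in each group except the double transfection (1.65 and 1.51). That of GAPDH was 0.264 to 0.378 over all arrays, higher on replicate 2 in each group except CBFA2T3 shRNA (0.304 and 0.276). The part of RNA integrity in the replicate difference was not tested. In the double transfection, the ACTB value was lower on replicate 2 and the GAPDH value was higher (0.264 and 0.284). The median difference of the 83 genes there was -0.206. Where the ACTB value was higher on replicate 2, this median was -0.143 for IKKβ(EE), -0.186 for control shRNA and -0.0541 for CBFA2T3 shRNA.

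Neighbouring mitochondrial gene lists were described in the same way. Genes of the mitochondrial ribosome, which translates the subunits encoded by mitochondrial DNA, had 72 of 75 lower on replicate 2 (median -0.167), against 5791 of 11445 over all tested genes. Of the 75, 9 passed, all lower (12%, against 3.7% of all probe sets in that direction), with MRPL12 (-0.45 ± 0.09), MRPS34 (-0.43 ± 0.08), MRPS12 (-0.43 ± 0.10) and MRPL11 (-0.42 ± 0.09) the largest. Of 44 tested assembly factors outside the rule 39 were lower (median -0.121) and none passed. The cytochromes CYCS and CYC1 were both lower (median -0.198), and neither passed. In coenzyme Q synthesis 11 of 13 were lower (median -0.183) and PDSS1, which makes the polyprenyl tail, fell by 0.48 ± 0.07. In the TCA cycle and pyruvate dehydrogenase 13 of 16 were lower (median -0.0962), and IDH3A (-0.42 ± 0.08) and DLAT (-0.35 ± 0.08) passed. Of 15 tested regulators of mitochondrial biogenesis 11 were lower (median -0.119), and PPRC1 (-0.41 ± 0.09), PPARGC1B (-0.38 ± 0.07) and the mitochondrial helicase gene TWNK (-0.38 ± 0.08) passed. The share that passed, all lower, was 7.69% in coenzyme Q synthesis, 12.5% in the TCA cycle list and 20% among the regulators. Of all probe sets 3.7% passed in that direction. Each of these lists has at most 16 tested genes, so 1 call moves its share. Together with the mitochondrial ribosome and the assembly factors, 15 of 163 passed (9.2%). Mitochondrial DNA-encoded subunits were not analysed here.

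The same lists were set against control shRNA. With CBFA2T3 shRNA 55 of 75 genes of the mitochondrial ribosome were higher (median 0.128), 27 of 44 assembly factors (0.0337), 10 of 15 biogenesis regulators (0.046), 12 of 16 genes of the TCA cycle (0.0823) and 8 of 13 of coenzyme Q synthesis (0.1). Of these 163 genes 1 passed (0.613%, against 0.69% of all probe sets): MRPL10 rose by 0.71 ± 0.11 (limma adjusted p = 0.0482). With IKKβ(EE) 60 of 75, 32 of 44, 11 of 15, 9 of 16 and 11 of 13 genes of these lists were lower, with medians of -0.107, -0.0946, -0.0993, -0.0542 and -0.146, and none passed with or without the replicate block. With both constructs 26 of 75, 26 of 44, 7 of 15, 7 of 16 and 8 of 13 were lower, with medians of 0.0473, -0.0374, 0.0211, 0.0566 and -0.0794. Of the 163, 5 passed (3.07%, against 8.43%). COQ10B, of the coenzyme Q list, rose by 0.92 ± 0.16 (adjusted p = 0.0204), MRPS10 by 0.66 ± 0.13, MRPL10 by 0.66 ± 0.11 and the copper chaperone gene SCO1 by 0.63 ± 0.15, while MRPL57 fell by 0.59 ± 0.14. B-cell precursor markers had 9 of 10 lower with both constructs (median -0.301), and none passed. The replicate block called 6 of the 163 with CBFA2T3 shRNA (3.68%, against 7.72%) and 15 with both (9.2%, against 23.7%). The 15 included 4 of the 16 tested genes of the TCA cycle and pyruvate dehydrogenase, a share near that of all probe sets. These were SUCLA2, SUCLG2, PDHX and IDH3A, all higher (0.41 to 0.43). With both, the block also called 2 of the 10 B-cell precursor markers, DNTT (-0.46) and CD79B (-0.37), a share likewise near that of all probe sets.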

How the data were processed

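Total RNA of Reh cells was hybridized to 8 arrays, 2 for each of 4 transfections. The authors deposited log2 intensities from RMA, per the submitters' processing notes. Its version is not given in the sources used here, and a base of 2 was taken from the range (maximum 14.6). The table held 54675 probe sets. The 62 controls were left out, and 24481 probe sets reached log2 5 on at least 2 arrays. Symbols came from the platform annotation, and all 89 genes were found in the reference gene table by identifier.

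Differences were fitted with limma 3.58.1 in R 4.3.3 (1 mean per group, 4 residual and 3.54 prior degrees of freedom) and adjusted by Benjamini-Hochberg over all 24481 probe sets per comparison, two-sided, with calls at an adjusted p of 0.05. Errors after ± are standard errors. Replicate 2 was set against replicate 1 in a fit of group plus replicate number (3 residual degrees of freedom). Permuting 2 arrays against 2 gives an exact p of 0.333 at best. Where cultures were not separate, the p-values measure only the spread between these arrays.

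Equal replicate numbers pair the arrays by the data: replicate differences correlated across probe sets at 0.344 to 0.577 in all 6 pairs of groups, and the labels give no shared batch. For the genes of the set and the counts of the lists, this block is given where it changed a call. Precision is limited by the number of arrays.

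The genes, lists and tests were chosen with earlier results of these data known. Named genes were those called, the extremes of each complex in each comparison with control and between replicates, the most intense of each complex, complex IV isoforms and the label checks. The fits were tested on 10 draws of simulated data. For both against control they recovered 51% of 2-fold and 90.2% of 4-fold changes, and 4.21% of calls were false. The simulated noise was independent between arrays, whereas replicate differences in the data correlated between groups. Alternatives were the floor, moderation, array weights, normalization, the choice of probe set, the arrays in the fit, the replicate block and leaving out each array. The subunits alone, and the block with an array left out, were added after seeing the data.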

Additional observations from a re-analysis of the deposited data

How the results depend on the processing

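The counts of genes that passed in the 6 comparisons of groups stayed at 0 under every alternative run, except as follows. The replicate block called 2 with CBFA2T3 shRNA and 4 with both, each against control shRNA. Leaving out an array changed the count for both against control. Without the block, calls appeared without replicate 1 of the double transfection, a fit with 1 array in that group. The block changed no other call of the set in the group comparisons. The count between replicates, 3 as reported, was 1 with no floor, 12 with the floor at log2 6, 31 with trended and robust moderation, 10 with array weights, 5 with equal array medians and 10 with 1 probe set per gene in the fit, and it ranged from 0 to 1 on leaving out an array. The floor and the choice of 1 probe set per gene changed the number of probe sets tested, and leaving out an array reduced the arrays. The share of all probe sets called under each of these settings is not given here. Without that background, the changed counts are no result about these genes. The cause of the changed counts was not tested.

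Under every alternative that kept all arrays, median differences changed from their reported values by less than the spread of the array medians (SD 0.114). The sign turned for CBFA2T3 shRNA with the subunits alone (-0.0068, against 0.00896) and for the interaction with cyclic loess (-0.000937, against 0.03). On leaving out an array, the median over the genes ranged from -0.161 to 0.0745 for both against control, from -0.173 to 0.0348 for both against CBFA2T3 shRNA, from -0.0647 to 0.175 for both against IKKβ(EE) and from -0.0804 to 0.145 for the interaction. It ranged from -0.0557 to 0.103 for CBFA2T3 shRNA, from -0.17 to -0.0182 for IKKβ(EE) and from -0.186 to -0.128 between replicates, the last 2 with a single direction throughout. The lowest and highest values involving the double transfection came from leaving out its replicate 1 or 2. The number of arrays, 2 a group, limits the precision of all these values.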
